A study of Caenorhabditis elegans with 2 samples.

Results

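Among the peaks of MXL-3 that passed the authors' threshold of irreproducible discovery rate (IDR), 800 of 3935 (20.3%) had their summit away from protein-coding promoters, beside a short run of alternating G and A and with no canonical E-box. A peak was a member where the window from 100 bp before to 100 bp after its summit held at least 6 strictly alternating G and A bases on either strand and no CACGTG, and where no protein-coding transcript start in the annotation had the summit between 1000 bp upstream and 200 bp downstream of it. The rule used the reference sequence and the annotation, and no signal value beyond the authors' threshold. Of the 3935 summits, 1942 lay outside those promoter windows and 1607 of these had no CACGTG. The 800 members were 49.8% of the 1607 (exact 95% interval 47.3 to 52.3%), and the other 807, called other distal peaks here, had no GA run.

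The data came from whole Caenorhabditis elegans at the L4 larval stage, 48 h old and of mixed sex, in 1 group of 2 biological replicates. The strain, OP745, carries the integrated transgene wgIs745, in which TY1, EGFP and 3xFLAG tags follow mxl-3, and unc-119(+) as a rescue of the unc-119(tm4063) mutation of the background. It is 1 stable transgenic line, and whole animals mix all tissues, so the peaks cannot be assigned to cells. An anti-GFP antibody was used on chromatin sheared to between 200 and 800 bp, which limits how closely a summit can mark a site. There is no second condition, so each comparison sets these peaks against other peaks or against nearby sequence.

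MXL-3 is a basic helix-loop-helix leucine zipper protein of the Max family, a family known to bind the E-box CACGTG as dimers. It is known in this animal for repressing lysosomal lipase genes when food is plentiful. GA-rich repeats are recognised in animals by other proteins, such as the GAGA factor of Drosophila melanogaster and the zinc finger protein EOR-1 of C. elegans, neither of which was measured here.

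The name without an E-box holds only for CACGTG. Some hexamer of the wider E-box form CANNTG lay within 100 bp of 471 of the 800 summits (58.9%), close to its 58.1% among 210 flank windows that also had a GA run, where a flank window is an equal window centred 500 bp from a distal summit. The rule bars CACGTG, itself a CANNTG, from member windows, and the definition of a flank window does not. The pooled share also hides single variants. CACATG lay at 18.5% of member summits and 6.88% of their flanks, while CATATG went the other way, at 2.38% and 3.75%. These summit and flank shares of variants were not tested. A CACGTG lay outside the window but within 200 bp of 35 member summits. The name outside promoters holds only for protein-coding starts, since 261 members lay in the same window around the start of a non-coding gene and 539 did not.

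The windows of the strongest members show how short most of the runs were. The 6 strongest members of the chromosomes whose sequence is shown here are given below from the summit to the longest run with 12 bases on either side, on the WBcel235 genome, each read 5′ to 3′ on the strand on which the run reads GA, with the longest run in capitals.
nhr-19 (chrII:9601255-9601331, plus strand): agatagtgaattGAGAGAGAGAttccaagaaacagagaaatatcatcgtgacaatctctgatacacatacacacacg
sup-26 (chrIII:4282180-4282294, plus strand): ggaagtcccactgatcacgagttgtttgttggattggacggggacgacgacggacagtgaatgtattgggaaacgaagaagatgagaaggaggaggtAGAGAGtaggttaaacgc
F09C8.1 (chrX:16157065-16157100, minus strand): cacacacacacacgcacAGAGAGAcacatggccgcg
nhr-20 (chrIII:4237883-4237967, plus strand): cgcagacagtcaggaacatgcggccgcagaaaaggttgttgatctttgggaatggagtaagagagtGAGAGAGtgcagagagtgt
lin-42 (chrII:1246977-1247033, plus strand): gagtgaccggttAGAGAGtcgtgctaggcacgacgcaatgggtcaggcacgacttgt
gcn-1 (chrIII:2172082-2172119, plus strand): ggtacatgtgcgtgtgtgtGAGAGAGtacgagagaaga

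In these stretches the capital runs were 6 to 10 bases long and often stood in longer purine-rich or CA-repeat sequence. The longest stretch of purines on 1 strand had a median of 13 bases in member windows, 11 in the flank windows with a run, 12 at promoter peaks with a run and 10 at other distal peaks. In a few members the window held or reached into a long simple repeat instead, of which 3 are shown in the same way. Run lengths count bases beyond the window too, and most of the ZK1128.7 run lay outside it.
ZK1128.7 (chrIII:10133137-10133333, minus strand): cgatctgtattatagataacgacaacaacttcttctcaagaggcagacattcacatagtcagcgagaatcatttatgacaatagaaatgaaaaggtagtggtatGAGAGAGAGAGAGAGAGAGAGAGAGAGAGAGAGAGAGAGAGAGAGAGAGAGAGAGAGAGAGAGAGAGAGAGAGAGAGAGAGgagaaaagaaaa
aakg-1 (chrIII:12549753-12549893, plus strand): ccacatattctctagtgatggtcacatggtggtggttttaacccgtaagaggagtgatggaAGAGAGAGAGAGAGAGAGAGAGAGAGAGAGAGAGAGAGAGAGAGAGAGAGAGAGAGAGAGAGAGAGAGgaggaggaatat
affl-2 (chrIII:433082-433200, minus strand): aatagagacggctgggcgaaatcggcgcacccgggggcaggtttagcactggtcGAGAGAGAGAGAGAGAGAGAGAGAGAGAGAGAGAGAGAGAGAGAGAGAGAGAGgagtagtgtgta

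The gene names label places and do not assign a target: a peak took the name of the protein-coding gene it lay in or else of the nearest start. The member named for nhr-19, a nuclear hormone receptor gene, had its summit at position 9601319 of chromosome II in an intron, with a peak from 9601130 to 9601486. Its signal was 404.7 in replicate 1 and 531 in replicate 2, and 934 in the pooled data from which the IDR list was made. The signal is the authors' own value on an undefined scale, so it ranks peaks within a list, and values of different lists are set side by side without comparison. This peak ranked 19 in replicate 1 and 18 in replicate 2, and its 10-base run had its middle 47.5 bp from the summit.

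The intergenic member near sup-26, which encodes an RNA-binding protein, had signals of 385 in replicate 1, 465 in replicate 2 and 858 in the IDR list. The one near nhr-20, another nuclear hormone receptor gene, had 295 in replicate 1, 406 in replicate 2 and 699 in the IDR list. In lin-42, the homologue of the clock gene period that times larval development, the summit lay in an exon of a non-coding RNA, with 258 in replicate 1, 417 in replicate 2 and 678 in the IDR list. The intronic member in gcn-1, known for its part in translational control, had 326, 297 and 619 in the same 3 lists and was the member farthest from a protein-coding start, at 20149 bp. All of these stood among the 102 highest peaks of each replicate list.

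Of the 5 members with the longest runs, those of eme-1 (85 bases), ZK1128.7 (81), C43G2.3 (78) and kin-20 (69) had IDR signals of 92.6, 101.3, 112.1 and 91.7, near the lower end of the list, and that of aakg-1 (68) had 363. The runs of eme-1 and ZK1128.7 lay mostly outside the window, with their middles at -129 and -132 bp from the summit. The ZK1128.7 member had 24.0 in replicate 1, where it ranked 12220, and 68.1 in replicate 2, where it ranked 2655. The member in aakg-1, which encodes a gamma subunit of AMP-activated kinase, had 149 in replicate 1 and 214 in replicate 2. The member of affl-2, an AF4/FMR2 family gene with a run of 53 bases, had an IDR signal of 228. The long-run member at kin-20 had a peak with 63.9 in replicate 1 and no matching peak in replicate 2. How reads were placed in such repeats is not given in the sources used here, and its part in these values was not tested.

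GA runs were the commonest of the 4 kinds of alternating run at distal summits. Over all 1607 distal peaks, 800 summit windows (49.8%) and 210 flank windows (13.1%, exact 95% interval 11.5 to 14.8%) held one, a ratio of 3.81. The run was present only at the summit in 690 peaks and only at the flank in 100 (two-sided exact McNemar test with Benjamini-Hochberg adjustment over 4 run types, p = 1.28e-108). Runs of alternating C and A lay at 35.03% of summits and 12.4% of flanks, a ratio of 2.815 (adjusted exact p = 5.29e-50). Runs of G and C lay at 10.1% of summits and 1.18% of flanks, the highest ratio at 8.53 (adjusted exact p = 1.13e-30). Runs of T and A went the other way, at 7.16% of summits and 11.7% of flanks, a ratio of 0.612 (adjusted exact p = 1.09e-05). Of all such windows tiled over the genome outside promoters, 12.6% held a GA run. Runs of GC and TA read the same on both strands, while GA and CA runs have a second form on the other strand. The order of the 4 kinds by share therefore compares unequal sets of sequences.

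**Figure D1:**
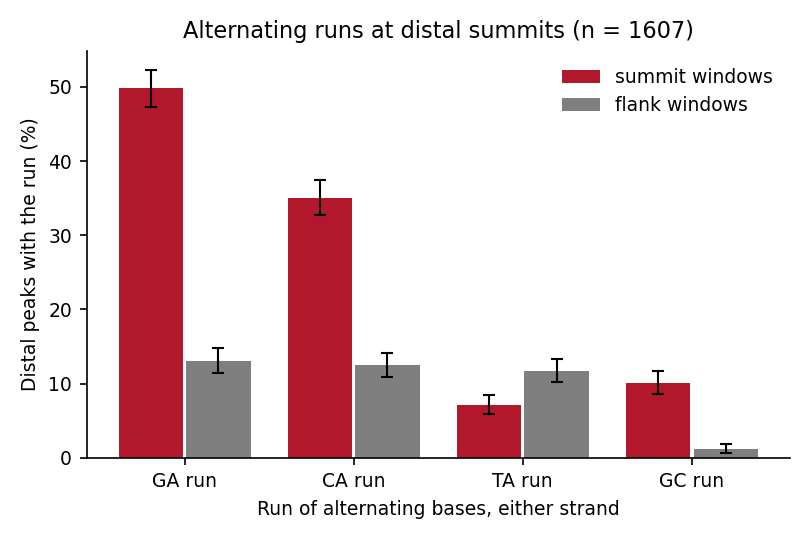
Share of the 1607 distal peaks whose summit window (red) or flank window (grey) held a run of at least 6 alternating bases of the named kind; bars show exact 95% intervals over peaks. GA runs stood at 49.8% of summits and 13.1% of flanks, and TA runs alone were lower at summits. In the 268 peaks with 35 to 45% G or C in both windows, TA runs stood at 11.9% of summits and 7.84% of flanks. That subset was chosen after the data were seen, and the difference did not pass (adjusted exact McNemar p = 0.126).

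Base composition moved with these shares. Member windows held 46.4 ± 6.16% G or C at the summit and 34.3 ± 6.73% at the flank (SD over 800 windows), and other distal peaks 44.3 ± 6.13% and 34.8 ± 6.86% (SD over 807). In the 268 peaks whose summit and flank windows both held 35 to 45% G or C, a subset chosen after the data were seen, GA runs stood at 44.8% of summits and 16.8% of flanks (adjusted exact p = 4.91e-13). CA runs stood there at 34.7% and 17.9% (adjusted exact p = 6.57e-05), while GC and TA runs no longer passed (adjusted exact p = 0.126 for both) and TA runs changed direction, to 11.9% of summits and 7.84% of flanks.

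Within the window the nearest run lay closer to the centre in members than in flank windows with a run. The middle of the nearest run was within 50 bp of the summit in 525 of 800 members (65.6%, exact 95% interval 62.2 to 68.9%) and within 50 bp of the centre in 106 of the 210 flank windows with a run (50.5%, 43.5 to 57.4%), an odds ratio of 1.87 (1.36 to 2.58; Fisher's exact test, two-sided, p = 8.17e-05). The median distance was 35.5 bp in members. Of the members, 221 held 2 runs and 140 held 3 or more, and the nearest of several runs tends to lie closer to a centre. The flank windows were not matched for the number of runs, so the test cannot tell central placement from a difference in that number. The test no longer passed with runs of at least 8 or 10 bases, which left 24 and 9 flank windows, among IDR peaks above the median signal (exact p = 0.119), or within a narrower window of 50 bp, where 57.2% of members and 56.5% of flanks had the run in the inner part (exact p = 0.915).

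**Figure D2:**
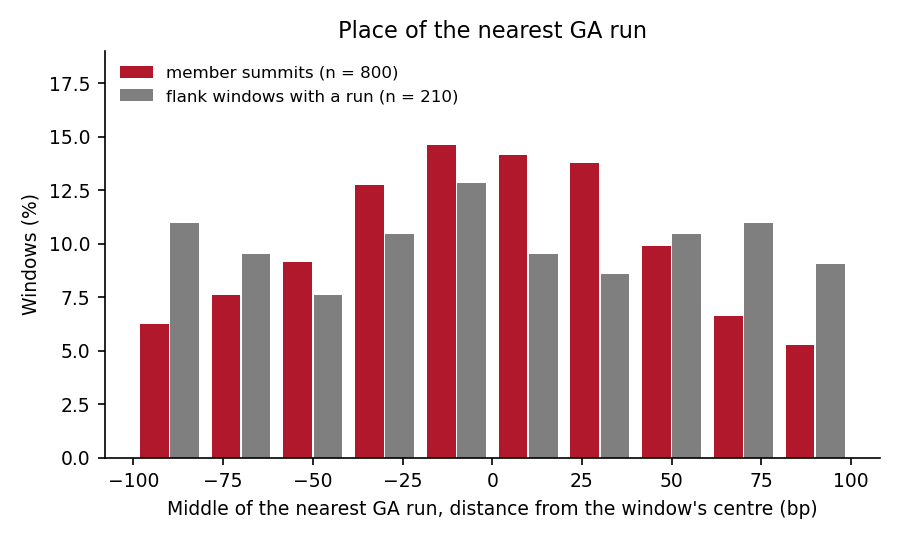
Distance of the middle of the nearest GA run from the summit (members, red, n = 800) or from the window's centre (flank windows with a run, grey, n = 210), in bins of 20 bp, as a share of windows. Between 20 bp before and 20 bp after the centre lie bins of 14.6% and 14.1% of members, against 12.9% and 9.52% of flank windows.

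Long runs were commoner at members than at flanks, a difference given by its counts alone. Counted inside the window, 151 of 800 members (18.9%) had a run of at least 10 bases, against 9 of 210 flank windows with a run (4.29%) and 92 of 823 promoter peaks with a run (11.2%). Counted with any bases beyond the window, the median longest run was 7 bases in members, and 313 members had exactly 6, the least the rule accepts. Counted in the same way, the longest run had 6 or 7 bases in 544 members and 20 or more in 16, and the longest of all had 85. A single run was found in 439 members, 2 in 221 and 3 or more in 140, with 6 the most in any window. The longest run read GA on the plus strand in 401 members and on the minus strand in 399.

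The share of distal summits with a GA run fell with peak rank and went on falling below the IDR threshold. It was 63.9% among the distal peaks of ranks 1 to 500 in the pooled list (exact 95% interval 55.8 to 71.4%), 58.1% for ranks 501 to 1000, 54.4% for ranks 1001 to 2000 and 43.4% for ranks 2001 to 3935, where the IDR list ends. Below it the share was 34.5% for ranks 3936 to 6000, 24.3% for 6001 to 10000, and between 16.0% and 19.2% in the 4 bins from 10001 to 30000. The fall was shared by other runs: CA runs lay at 49.7% of distal summits in the first bin and 13.0% in the last, and GC runs at 20.6% and 2.14%, while TA runs had 7.74% and 8.29%. For GA runs over all ranks, 800 of 1607 distal peaks above the threshold had a run (49.8%), against 3414 of 17156 below it (19.9%, 19.3 to 20.5%), an odds ratio of 3.99 (3.59 to 4.44; Fisher's exact test, two-sided, p = 6.05e-141). Peaks are not replicates and neighbouring peaks are not independent, so these p-values and the intervals cover counting error only.

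**Figure D3:**
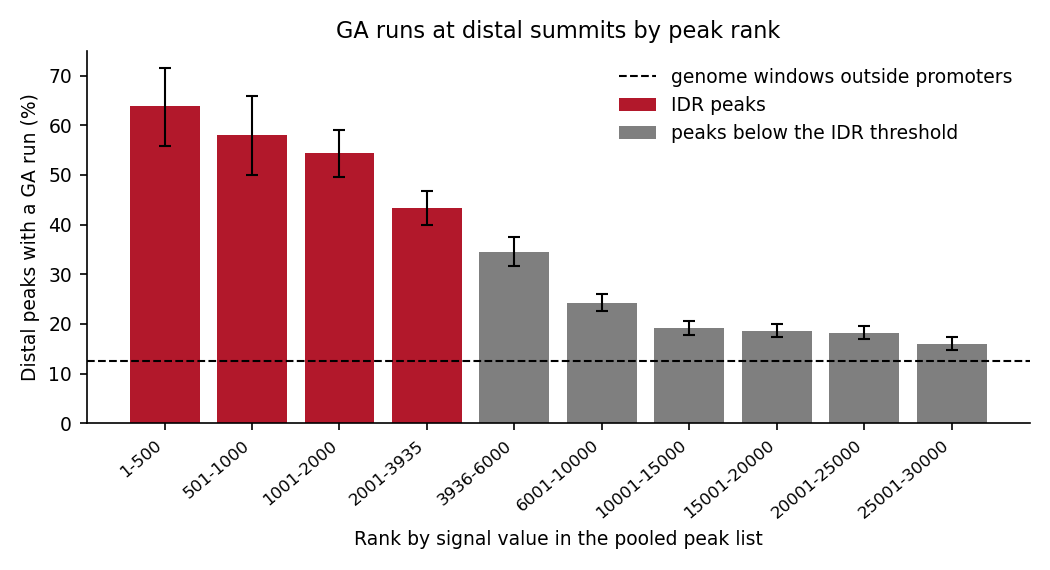
Share of distal peaks without CACGTG that held a GA run, by rank of signal in the pooled list of 30000 peaks; red bars are IDR peaks, grey bars peaks below the threshold, with exact 95% intervals, and the dashed line is the 12.6% of genome windows outside promoters. The share is 63.9% in the first bin and 16.0% in the last.

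Members had higher signals than the other distal peaks. Their IDR signal had a median of 141 (quartiles 109 and 197, range 91.2 to 934), against 125.5 (104 and 167, range 91.2 to 1372) in other distal peaks. The median of all IDR peaks, 138, was exceeded by 422 of 800 members (52.8%, exact 95% interval 49.2 to 56.3%) and by 313 of 807 other distal peaks (38.8%, 35.4 to 42.2%), an odds ratio of 1.76 (1.44 to 2.16; two-sided Fisher's exact test with Benjamini-Hochberg adjustment over 6 features, p = 1.19e-07). Against the 823 promoter peaks that also had a GA run and no CACGTG, whose median was 149, the difference did not pass: 52.8% of members and 55.4% of those promoter peaks exceeded the median (odds ratio 0.90, 0.74 to 1.10; Fisher's exact test, two-sided, p = 0.296). With the starts of genes of every biotype behind the promoter window it did, at 49.5% of members and 56.4% of promoter peaks (exact p = 0.0096).

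**Figure D4:**
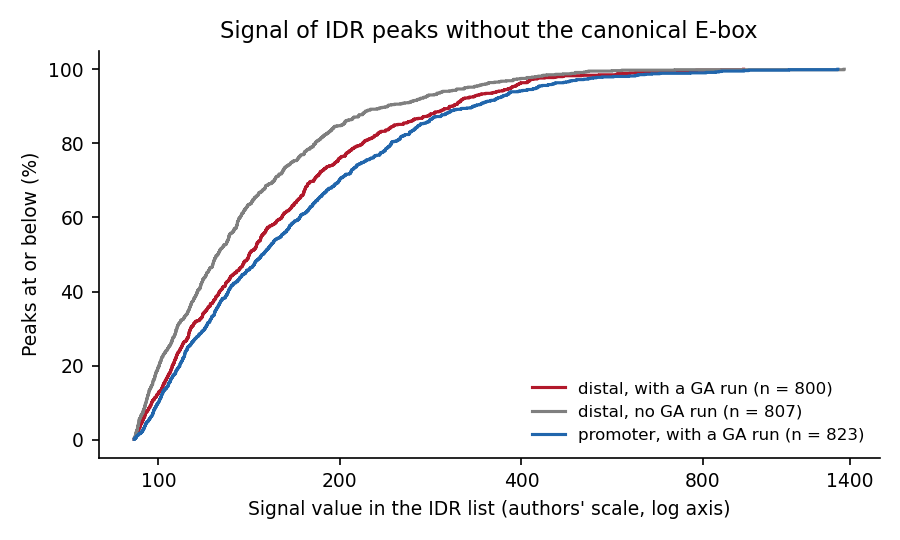
Cumulative share of IDR peaks without CACGTG at or below each signal value (log axis, authors' scale) for members (red, n = 800), other distal peaks (grey, n = 807) and promoter peaks with a GA run (blue, n = 823). The median is 141 for members, 125.5 for other distal peaks and 149 for promoter peaks.

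The median signal was higher in members with several runs than in those with 1, at 133 with 1 run, 147 with 2 and 164 with 3 or more. By length the median signal was 138 for longest runs of 6 or 7 bases, 146 for 8 or 9, 149 for 10 to 13, 155 for 14 to 19 and 154 for 20 or more. The share above the IDR median in these classes was 50.2%, 54%, 57.6%, 64.6% and 68.8%, and the intervals of the extreme classes overlapped (45.9 to 54.5% for 544 members and 41.3 to 89.0% for 16). By number of runs that share was 47.2% with 1 (exact 95% interval 42.4 to 51.9%), 55.2% with 2 (48.4 to 61.9%) and 66.4% with 3 or more (57.96 to 74.2%). Just inside the rule, the 313 members with exactly 6 bases had a median of 135. Just outside it, the 464 other distal peaks with a run of 5 bases had 131, and the 343 without one 121.

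Members were drawn from the IDR list, which holds the strongest pooled peaks, so high ranks in each replicate follow from that choice and are given as a description. Replicate 1 had a peak with its summit within 100 bp of 780 members and replicate 2 of 791, with median distances of 12 and 6 bp, and 29 members lacked a peak in at least 1 list. In replicate 1 the matched members had a median signal of 62.6 (range 15.1 to 404.7), where the whole list of 30000 peaks had 21.7. In replicate 2 they had 80.9 (21.9 to 531), where the whole list had 26.9. Among the 3935 strongest peaks of each replicate were 659 members in replicate 1 (82.4%) and 700 in replicate 2 (87.5%), where all IDR peaks had 82.5% and 86.9%. Over the 771 members with a peak in both lists Spearman's rho of the signals was 0.70.

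**Figure D5:**
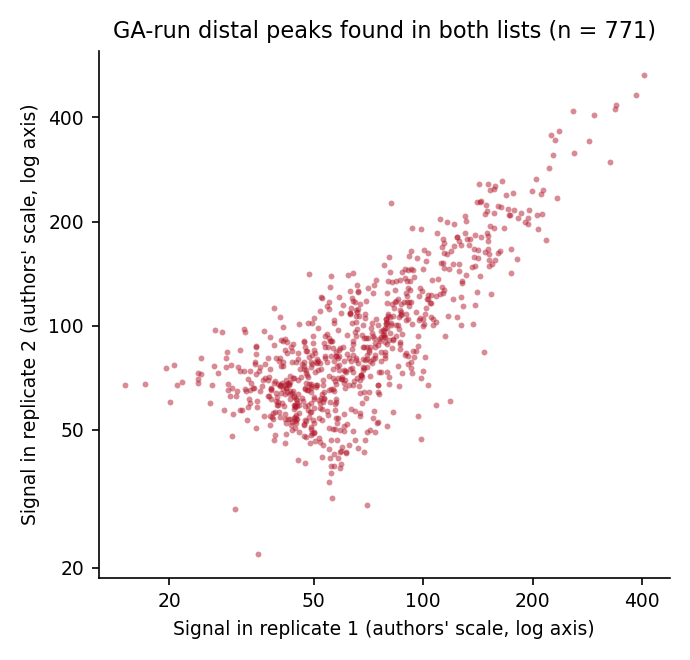
Signal of the 771 members found in both replicate lists, replicate 1 on the horizontal and replicate 2 on the vertical axis, both logarithmic and on the authors' scales, 1 point per member. The points rise together, with the strongest member at 404.7 and 531.

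Both replicates placed 573 of 800 members (71.6%) and 524 of 807 other distal peaks (64.9%) among their 3935 strongest peaks (odds ratio 1.36, 1.10 to 1.69; Fisher's exact test, adjusted p = 0.0067). That difference did not pass in 6 of 16 alternatives, and among IDR peaks above the median signal the shares were 95.97% of members and 97.4% of others (adjusted exact p = 0.516). The share in both lists was tested against other distal peaks only. In the single lists of replicates 1 and 2, members (82.4% and 87.5%) stood near all IDR peaks (82.5% and 86.9%). Promoter peaks with a GA run were higher (84.3% and 89.3%) and other distal peaks lower (80.2% and 82.8%).

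A further sequence that the rule did not use, GACGCA, was commoner at members than at other distal peaks. GACGCA was searched since earlier results of these data name it, so its test does not rest on an independent choice. It lay within 100 bp of 195 member summits (24.4%, exact 95% interval 21.4 to 27.5%) and of 95 other distal summits (11.8%, 9.63 to 14.2%), an odds ratio of 2.41 (1.83 to 3.19; two-sided Fisher's exact test with Benjamini-Hochberg adjustment over 10 motifs, p = 2.07e-10). The flank windows of members held it in 4.25%, and genome windows outside promoters in 3.66%. It was not particular to the members, since 225 of the 823 promoter peaks with a GA run (27.3%) held it too. In 87 of the 195 members (44.6%) its middle lay within 20 bp of the middle of the nearest GA run. That share was not measured in another group, and both sequences were sought in the same window. Whether they lay closer than their shared window implies was not tested. Members with GACGCA had a median signal of 157 and those without it 138, and it stood at 19.6% of members with 1 run, 24.9% with 2 and 38.6% with 3 or more.

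GACGCA at members often had GA-type bases around it, which the rule favours, since a GA run overlapping the motif gives it such bases. The bases around it were not counted at other distal peaks. Of the 211 occurrences of GACGCA at members, 172 (81.5%) had A immediately before and 164 (77.7%) had G immediately after, followed by A in 139 (65.9%). The sequence AGACGCAGA, which was chosen for these neighbours after they had been counted, was present at 116 members (14.5%, exact 95% interval 12.1 to 17.1%), 30 other distal peaks (3.72%, 2.52 to 5.26%) and 126 of the 823 promoter peaks with a run (15.3%, 12.9 to 17.96%). It was found at 3.49% of the distal peaks below the threshold that had a run, in 1% of member flanks and in 0.549% of genome windows outside promoters. Other distal peaks hold no GA run by rule, so the lower share of AGACGCAGA there can follow in part from the rule. The 4 strongest members with it on the same chromosomes are given with 26 bases on either side and AGACGCAGA in capitals, and this set too was chosen after the values were seen.
lin-42 (chrII:1246937-1246997, plus strand): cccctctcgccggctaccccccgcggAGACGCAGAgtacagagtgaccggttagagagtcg
T19C3.4 (chrIII:623924-623984, plus strand): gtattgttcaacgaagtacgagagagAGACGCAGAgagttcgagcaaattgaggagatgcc
hda-4 (chrX:16727078-16727138, minus strand): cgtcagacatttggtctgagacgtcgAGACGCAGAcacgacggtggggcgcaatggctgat
Y111B2A.12 (chrIII:12612638-12612698, minus strand): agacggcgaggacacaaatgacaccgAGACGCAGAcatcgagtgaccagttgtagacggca

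At T19C3.4 the motif began inside the alternating run. The IDR signals were 678 at lin-42, 579 at T19C3.4, 425 at hda-4, a class II histone deacetylase gene, and 414 at Y111B2A.12. At T19C3.4 replicate 1 gave 260.1 and replicate 2 gave 316.

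Of the other 9 motifs searched on both strands, 3 were rarer at members than at other distal peaks. TGATAA, the core of GATA factor sites, lay at 19.6% of members and 34.6% of others (odds ratio 0.46, 0.37 to 0.58; adjusted exact p = 1.41e-10), where the flanks had 17.8% and 22.4%. TTTTTT lay at 34.6% of members and 42.9% of others (adjusted exact p = 0.0024), both below their flanks of 67.5% and 61.7%, and that call was lost in 6 of 14 alternatives, leaving out replicate 2 among them (35.7% and 39.8%, adjusted exact p = 0.215). The E-box variant CACCTG lay at 5.13% of members and 9.29% of others (adjusted exact p = 0.0035), and that call was lost in 8 of 14 alternatives. In windows with 40 to 50% G or C, a subset chosen after the data were seen, TGATAA remained lower (21.0% of members, 28.9% of others, adjusted exact p = 0.0192) and TTTTTT, in 1 of those 6, did not pass (37.7% and 43.4%, adjusted exact p = 0.226).

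No E-box variant passed the test as commoner at members than at other distal peaks. CACATG lay at 18.5% of members and 21.9% of others (odds ratio 0.81, 0.63 to 1.04; adjusted exact p = 0.187), and at 6.88% of member flanks. CAAGTG lay at 10.1% of members and 11.5% of others (odds ratio 0.86, 0.62 to 1.20; adjusted exact p = 0.540). CAGCTG (4.75% and 5.08%), CAACTG (12.5% and 13.8%), CATATG (2.38% and 3.22%) and the control run CCCCCC (9.88% and 9.79%) did not pass either. The intervals of these odds ratios all include 1 and were wide for the rarer motifs, such as 0.38 to 1.39 for CATATG. Under some alternatives 3 of the variants passed as rarer at members: CACATG in a window of 50 bp (8.99% of members, 13.5% of others, adjusted exact p = 0.0169) and without replicate 1 (16.5% and 22.3%, adjusted exact p = 0.0081), CAACTG without replicate 2 (11.9% and 16.2%, adjusted exact p = 0.0463) and CATATG in a window of 200 bp (4.85% and 8.81%, adjusted exact p = 0.0071).

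Member summits lay mostly between genes. Of the 800, 427 (53.4%) were intergenic, 230 (28.8%) intronic, 115 (14.4%) in exons of non-coding RNA genes, 13 (1.63%) in coding sequence, 8 (1%) in 5' UTRs and 7 (0.875%) in 3' UTRs. Of other distal peaks, 46.7% were intergenic, 27.8% intronic, 17.2% in other exons and 6.07% in coding sequence. The difference in the intron share did not pass (adjusted exact p = 0.698, odds ratio 1.05, 0.84 to 1.31). The median distance to the nearest protein-coding start was 2133 bp for members and 1940 bp for other distal peaks, and 91 members were more than 5000 bp away. Inside genes, 127 longest runs read GA and 176 read TC on the gene's strand.

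The median signal was 145 for intergenic members, 138 for intronic ones, 151 for those in non-coding exons and 125 for the 13 in coding sequence. The strongest coding member lay in pks-1, a polyketide synthase gene, with 504 in the IDR list, 222 in replicate 1 and 286 in replicate 2. Among 5' UTR members that of egl-30, which encodes a Gq alpha subunit, was the strongest at 216, and among 3' UTR members that of the Integrator subunit gene ints-3 at 295.

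Small RNA genes lay near members less often than near other distal peaks. A tRNA, snoRNA, snRNA or microRNA gene was within 500 bp of 82 members (10.3%, exact 95% interval 8.24 to 12.6%) and of 151 other distal peaks (18.7%, 16.1 to 21.6%), an odds ratio of 0.50 (0.37 to 0.67; Fisher's exact test, adjusted p = 4e-06). Exons of tRNA genes held 17 member summits and 53 other distal summits. With promoter windows drawn at the starts of genes of every biotype, which removes peaks beside those genes by construction, 3 members and 0 others remained near one. Another IDR summit within 1000 bp was found for 14.1% of members and 16.6% of others (adjusted exact p = 0.226), a difference that passed within a window of 50 bp (12.5% and 17.4%, adjusted exact p = 0.0128) and with the smaller promoter window (14.3% and 17.96%, adjusted exact p = 0.0338).

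The X chromosome held fewer of the members than of the other distal peaks. It carried 174 of 800 members (21.8%, exact 95% interval 18.9 to 24.8%) and 256 of 807 others (31.7%, 28.5 to 35.1%), an odds ratio of 0.60 (0.47 to 0.75; Fisher's exact test, adjusted p = 1.28e-05). X is 17.7% of the genome. By density, III had the most members per Mb, 10.5, then X with 9.82, and V the fewest, 5.02. Among distal peaks, the share with a GA run was 58% on III, 54.7% on II, 53.3% on IV, 53.1% on I, 46.3% on V and 40.5% on X. Only 3 members lay within 20000 bp of mxl-3, whose transgene copy the files do not separate from the endogenous gene.

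The 800 members carried the names of 671 genes, 576 of them with 1 member, 70 with 2 and 25 with more. Other names among the 20 strongest were F09C8.1 (779), bet-1, a bromodomain protein gene (767), nduf-7, a gene of mitochondrial complex I (631), kin-20, the casein kinase 1 gene related to doubletime of the fly (605), the calmodulin gene cmd-1 (577), ZK792.12 (574) and pigx-1 (538). The remaining ones were K10C3.4 (470.03), suca-1, a subunit of succinyl-CoA ligase (468), far-8, of a fatty acid and retinol binding protein family (457), nhr-1 (453), the trehalose phosphate synthase gene tps-1 (437) and lag-1, the DNA-binding effector of Notch signalling (426). The lowest rank of the 20 was 246 in replicate 1 and 195 in replicate 2.

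Some genes gathered several members, and these genes were chosen after the values were seen. The 5 at ncl-1, which encodes a TRIM-NHL protein that limits nucleolar size, had signals from 104.1 to 387, with 4 of them inside the gene. The 5 at daf-16, the FOXO factor of insulin signalling, ran from 105.4 to 292, and the 5 at vhp-1, a MAP kinase phosphatase gene, from 94.7 to 234. At zfp-1, the homologue of the human leukaemia partner gene AF10, 4 intronic members ran from 102.2 to 379. The 4 at lin-42 ran from 127 to 678, and the 4 at egl-27, a gene related to the NuRD component MTA, from 111 to 238 at distances of 5687 to 10291 bp upstream of its start.

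By gene groups formed from symbols, nuclear hormone receptor genes were named for 37 members (4.63%, at 28 genes), against 22 other distal peaks (2.73%, 17 genes), and they make up 1.37% of protein-coding genes. The lin class, 0.235% of protein-coding genes, held 13 members (1.63%, 7 genes) and 6 others (0.743%, 4 genes). It was led after lin-42 by lin-59 (283) and lin-29, a zinc finger factor of the larval-to-adult switch (205). The zinc finger and GATA factor genes of the symbol list, 49 genes or 0.245%, held 14 members (1.75%, 7 genes) and 8 others (0.991%, 6 genes), with klf-1 at 303 and 295.07. Several members at 1 gene raise a share of members but not a share of genes, and lin-42 and egl-27 each held 4. A symbol list can also leave out genes of its kind, since lin-29 was counted in the lin class. The lipid metabolism genes of the symbol list, 84 genes or 0.421%, held 6 members (0.75%, 6 genes) and 16 others (1.98%, 15 genes). Among these members were the carnitine palmitoyltransferase gene cpt-1 at 259.8 and the acyl-CoA synthetase genes acs-6 and acs-5 at 249 and 178.

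The remaining groups were small. Homeobox genes held 3 members and 1 other peak, with both unc-39 members, at 274 and 206, ahead of ceh-18 at 115. Basic helix-loop-helix genes held 4 members and 8 others, among the members lin-32 (187), hlh-30, the TFEB orthologue (169), and hlh-11 (156). Cuticle collagen genes held 6 members and 8 others, chemoreceptor genes 10 and 11, ion channel genes 4 and 4, neuropeptide and insulin genes 2 and 4 and C-type lectin genes 2 and 2. Chemoreceptors are 6.83% of protein-coding genes but were named for 1.25% of members and 1.36% of others. The groups are described by counts alone, since long genes and wide intergenic spaces offer more room for distal peaks and their part in these counts was not tested.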

How the data were processed

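The authors deposited peak lists on assembly ce11, whose sequence is that of WBcel235. Per the file headers and listings, each replicate and the pooled data gave a list of 30000 peaks, and the IDR list of 3935 peaks held the strongest of the pooled list. The values used are the signal column of each list as deposited. Aligner, peak caller and control strain: not given in the sources used here. The sequencing depth is unknown. The 2 replicates are biological replicates per the labels.

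Summits were joined to the RefSeq WBcel235 sequence and to Ensembl release 115 gene models, and 0 peaks lay beyond a chromosome end. Windows had 201 bp. Flank windows lay 500 bp away, on a side drawn with seed 11. A member was matched to a replicate peak whose summit lay within 100 bp. Where annotations overlapped, a summit was placed in coding sequence before UTRs, other exons and introns, in that order. Shares were compared with exact McNemar and Fisher's exact tests, two-sided, with Benjamini-Hochberg adjustment and a threshold of 0.05, and intervals are Clopper-Pearson at 95%. The code was tested on simulated positions and shares. Members, motifs, gene groups and tests were chosen with earlier results of these data known.

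Named members were the 20 strongest, the 5 with the longest runs, and up to 3 per location and per gene group, by signal. Sequences from chromosome I are not shown. The work was done in Python 3.11.15 with scipy 1.17.1, pandas 2.3.3, numpy 2.4.6 and matplotlib 3.10.9.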

Additional observations from a re-analysis of the deposited data

How the results depend on the processing

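No paired analysis was possible because there is 1 group of samples, so replicate numbers pair nothing across groups. The McNemar tests pair the summit and flank windows of the same peak. The GA run at summits against flanks, the signal against other distal peaks, the X share and the GA share above against below the threshold kept their direction and call under every alternative tried. Leaving out a replicate replaced the IDR list by the 3935 strongest peaks of the other.

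Values here are differences in percentage points, members minus their comparison group, or, for TA runs, summit minus flank over all distal peaks. The share found by both replicates (6.69) no longer passed with runs of at least 8 bases (1.08) or 10 (3.597), a window of 200 bp (5.08), starts of every biotype (5.66) or windows with 40 to 50% G or C (5.39), and was -1.47 among peaks above the IDR median. The central position of the nearest run (15.1) no longer passed with runs of at least 8 bases (15.3) or 10 (7.21), a window of 50 bp (0.766) or peaks above the IDR median (9.12). Runs of at least 8 or 10 bases left few flank windows with a run. Neighbouring summits (-2.48) passed with a window of 50 bp (-4.95) and the promoter window of 500 and 100 bp (-3.67). Starts of every biotype gave 0.557 for small RNA genes (-8.46) and -6.83 for the signal against promoter peaks (-2.66). TA runs (-4.54) were 4.10 where both windows held 35 to 45% G or C. Of 10 motifs 4 passed. With runs of at least 8 or 10 bases or peaks above the IDR median 2 passed, and 3 passed with the promoter window of 2000 and 500 bp, without replicate 2, with starts of every biotype and in windows with 40 to 50% G or C. The causes were not tested.

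The IDR list holds no read counts, so the depth behind a peak and the precision of its signal are unknown.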
